A study of Mus musculus with 8 samples.

Results

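A group of 10 genes of costimulatory receptors was followed in regulatory T (Treg) cells of the mouse spleen, out of 36811 gene models in the deposited table. They are Icos, Cd28 and Cd226 of the immunoglobulin superfamily, and Cd27, Tnfrsf4, Tnfrsf9, Tnfrsf18, Tnfrsf1b, Tnfrsf25 and Tnfrsf13b of the tumour necrosis factor (TNF) receptor superfamily. The genes were chosen by symbol, each matched 1 Ensembl ID, and all 10 passed the low-value filter that left 11260 genes for testing. The cells compared were Foxp3-GFP positive, Bach2-RFP LO Treg cells and Foxp3-GFP positive, Bach2-RFP HI Treg cells, with 4 libraries each, labelled F1 and F2 for females and M1 and M2 for males. All mice were C57BL/6 of the genotype Foxp3EGFP-DTR Bach2tdRFP/+ and 12 to 13 weeks old, so both groups carry the green Foxp3 reporter with a diphtheria toxin receptor and 1 Bach2 allele with a red reporter, and no treatment is labelled. LO and HI libraries share sex and number in their labels, but no label states that F1, F2, M1 or M2 is the same animal in both groups. Nor do the labels state that libraries of a group are from separate animals. The error behind each p-value is thus that between libraries and may be technical.

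T cells need a costimulatory signal besides that of the antigen receptor. CD28 and ICOS give it through cytoplasmic tails that recruit phosphoinositide 3-kinase, whereas the TNF receptors bind trimeric ligands and recruit TRAF adaptors, which lead to NF-kB. In Treg cells CD28 is needed for development and upkeep, and ICOS, OX40, 4-1BB, GITR and TNFR2 are known as surface markers of activated Treg cells. BACH2 is a transcriptional repressor that restrains effector differentiation of T cells and binds DNA sites that AP-1 factors also use.

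Values are FPKM, fragment counts scaled to transcript length and library size, and levels of different genes are compared on this scale. How values were scaled and with which annotation is not given, so such comparisons are approximate. The FPKM sum of a library was 1.49e+06 to 1.76e+06 in LO and 1.84e+06 to 2.14e+06 in HI libraries. The part of this difference in the levels of single genes was not tested. Relative depth, read from the steps between the lowest FPKM values and set to 1 in HI F1, was 0.818 to 5.27 in LO libraries and 0.636 to 1.27 in HI libraries. LO M2 was the deepest library and HI M1 the shallowest. Bach2, on which the cells were sorted, lay at 0.447 to 0.894 FPKM in LO libraries and 8.62 to 20.7 FPKM in HI libraries. Cd3e, a chain of the T cell receptor complex, lay at 383 to 431 FPKM in LO libraries and 283 to 378 FPKM in HI libraries. The groups overlapped for the chain genes Cd3d, with a lower mean in LO, and Cd3g, with a higher one. Cd3d lay at 705.5 to 870.9 FPKM in LO and 797.5 to 892.3 FPKM in HI libraries. Cd3g lay at 4069 to 5687 FPKM in LO and 3823 to 4440 FPKM in HI libraries. Foxp3, the lineage factor of Treg cells, lay at 10.5 to 19.8 FPKM in LO and 13.3 to 15.2 FPKM in HI libraries. Of the 10 markers of CD4 T and Treg cells, 2 were higher in LO cells (Ctla4 and Ikzf2), 1 was lower and 7 did not pass. The lower one was Il2ra, which encodes the IL-2 receptor chain CD25 carried by most Treg cells, at 27.7 ± 5.13 FPKM in LO and 75.6 ± 8.83 FPKM in HI cells (SD, n = 4 each; limma, adjusted p = 0.00149). Markers of plasmacytoid dendritic cells were lower in LO libraries for 5 of 8 tested genes, with a summed level of 280 to 382 FPKM against 476 to 806 FPKM in HI libraries. Of 10 tested B cell markers 4 were lower in LO libraries, with sums of 859 to 1754 FPKM against 1120 to 1686 FPKM in HI libraries. Plasma cell markers were higher for 2 of 6 tested genes, Prdm1 and Jchain, with sums of 183 to 276 FPKM in LO and 127 to 152 FPKM in HI libraries. Of 8 tested myeloid markers 2 were lower in LO cells, Csf1r and Fcgr3, with sums of 386 to 648 FPKM in LO and 389 to 614 FPKM in HI libraries.

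Of the 10 receptor genes, 5 were higher in LO cells, 0 were lower and 5 did not pass the test (limma on log2(FPKM + 1), Benjamini-Hochberg adjusted p below 0.05 over all 11260 genes). Icos rose most, followed by Tnfrsf1b, Tnfrsf4, Tnfrsf9 and Tnfrsf18. Over all tested genes 8.29% were called, 4.65% higher and 3.64% lower. The same 5 genes had all 4 LO libraries above all 4 HI libraries, which held for 7.9% of all tested genes, while 0 of the 10 had all LO below all HI libraries, against 7.18% of all tested genes. In the other 5 the groups overlapped. The median difference of mean log2(FPKM + 1), LO minus HI, was 0.57 over the 10 genes and -0.03 over all tested genes. The 10 genes were chosen with earlier results of these data known, so these counts and medians describe the group and do not test it. By mean FPKM they lay above 71.2% to 99.2% of all tested genes, which are thus not a background of like level. Bulk libraries cannot tell a change in RNA per cell from a change in the share of cells that carry it.

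**Figure D1:**
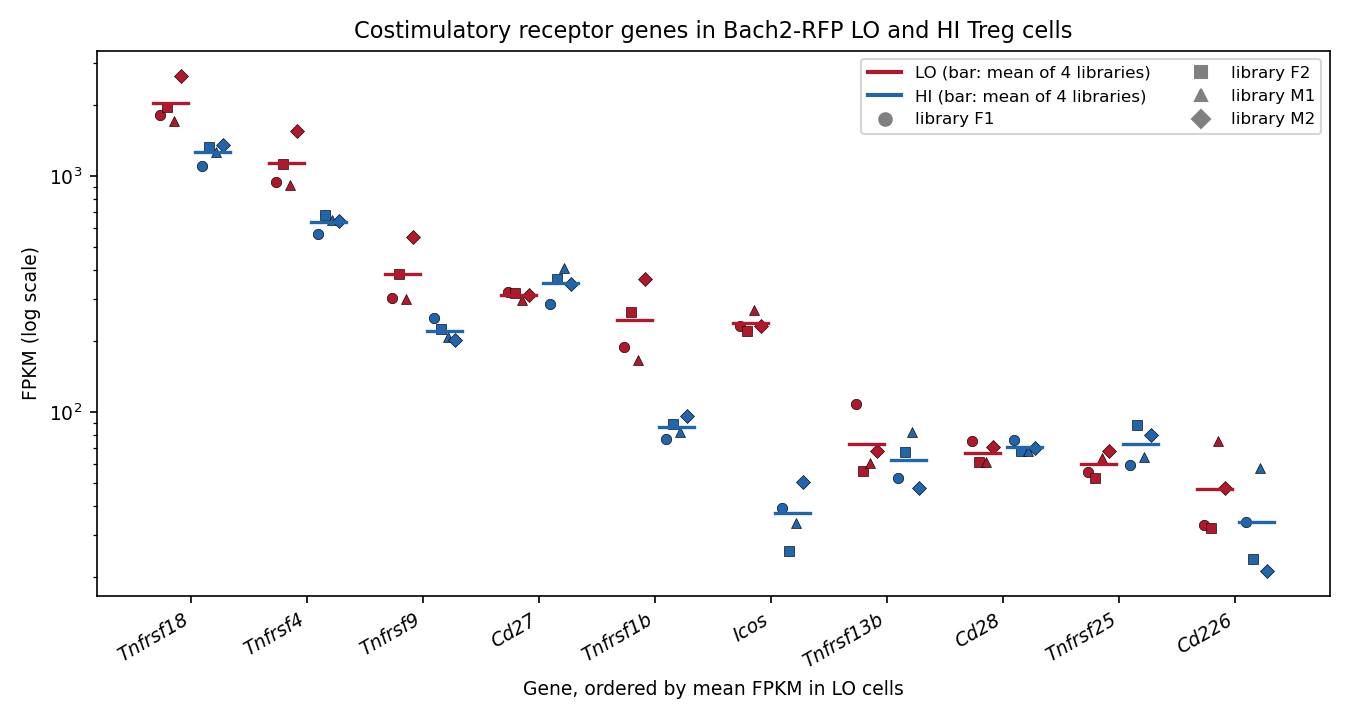
FPKM of each receptor gene (log scale) in the 4 LO and the 4 HI libraries, with a marker shape for each label and a bar at the group mean, genes ordered by mean FPKM in LO cells. LO and HI points do not overlap for Tnfrsf18, Tnfrsf4, Tnfrsf9, Tnfrsf1b and Icos, and they overlap for Cd27, Tnfrsf13b, Cd28, Tnfrsf25 and Cd226.

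ICOS and CD28 are the costimulatory members of the CD28 family among these genes, ICOS being induced on activation and CD28 being present on resting T cells. Icos had 231, 221, 271 and 230 FPKM in LO F1, F2, M1 and M2, against 39.0, 25.8, 33.8 and 50.2 FPKM in HI F1, F2, M1 and M2. Every LO library was thus more than 4 times above the highest HI library, and the mean was 238 ± 22.1 FPKM in LO and 37.2 ± 10.2 FPKM in HI cells (SD, n = 4 each), 6.40-fold. The log2 difference was 2.68 (SE 0.204; limma, adjusted p = 0.00013), place 13 of all tested genes by p. It stayed between 2.52 and 2.84 when single libraries were left out.

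Cd28 had 75.6, 61.0, 61.0 and 71.3 FPKM in LO F1, F2, M1 and M2, against 76.1, 68.4, 68.3 and 70.3 FPKM in HI F1, F2, M1 and M2. The groups overlap, with LO F2 and M1 below all HI libraries, and Cd28 had the smallest spread of the 10 genes in HI libraries, with a coefficient of variation of 5.18%. The log2 difference was -0.08 (95% interval -0.41 to 0.25; limma, adjusted p = 0.82), so a change of Cd28 on the scale of that of Icos lies outside the interval. Within a library, where scaling between libraries plays no part, the ratio of Icos to Cd28 FPKM was 3.06 to 4.44 in LO and 0.377 to 0.714 in HI cells. Icos therefore had the higher FPKM of the pair in each LO library and Cd28 in each HI library.

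Cd226 encodes DNAM-1, an activating receptor for CD155 and nectin-2 that competes with the inhibitory receptor TIGIT for these ligands. It had 33.1, 32.1, 75.4 and 47.7 FPKM in LO F1, F2, M1 and M2, against 34.1, 23.7, 58.0 and 21.2 FPKM in HI F1, F2, M1 and M2. The M1 library was the highest in both groups, and the groups overlap. Cd226 varied most of the 10 genes, with a coefficient of variation of 42.8% in LO and 49.1% in HI cells, and its log2 difference of 0.47 (95% interval -0.34 to 1.29) did not pass (limma, adjusted p = 0.526). Its counterpart Tigit rose to 456 to 579 FPKM in LO libraries, against 27.1 to 55.5 FPKM in HI libraries (log2 difference 3.51; limma, adjusted p = 5.04e-05). NK cells also carry Cd226. Of 5 tested NK cell markers 1 was higher (Nkg7) and 1 lower (Eomes) in LO cells. Eomes, at 0 to 0.426 FPKM in LO and 1.67 to 6.75 FPKM in HI libraries, passed the filter only through HI libraries. The sum over the 8 marker genes was 153 to 325 FPKM in LO and 90.2 to 147 FPKM in HI cells, highest in M1 of both groups. Most of it was Nkg7, at 146.5 to 284.8 FPKM in LO and 48.5 to 99.7 FPKM in HI libraries, also highest in M1 of both groups. The other tested markers, Eomes, Gzma, Prf1 and Klrb1c, had lower means in LO cells, and of these only Eomes passed. The part of NK cells in the level of Cd226 was not tested.

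**Figure D2:**
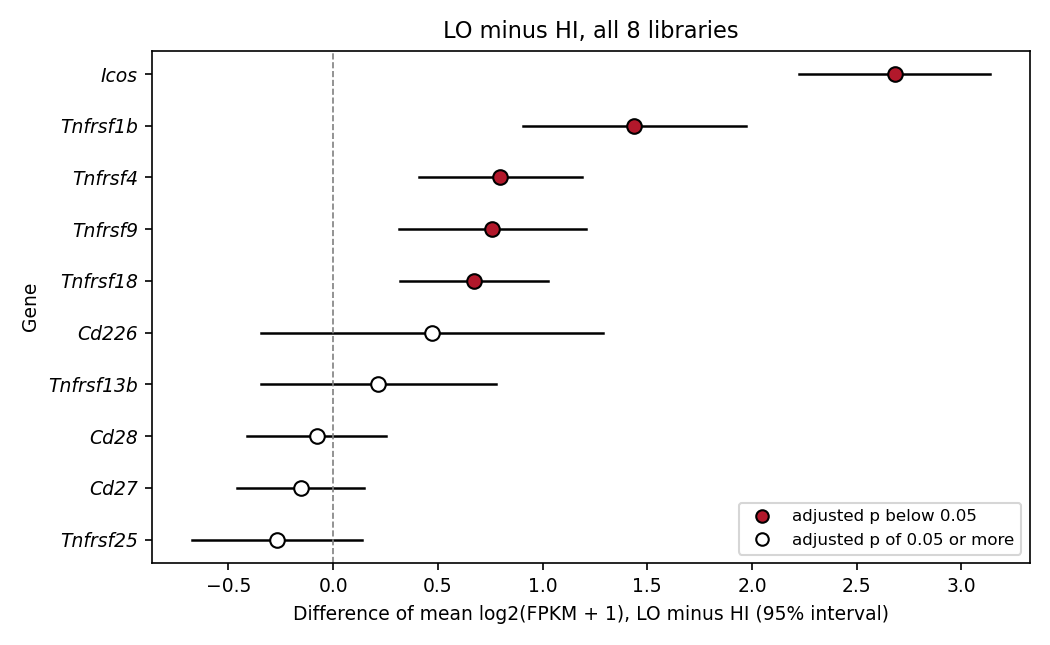
Difference of mean log2(FPKM + 1), LO minus HI, for the 10 receptor genes with its 95% interval from limma over all 8 libraries, filled where the adjusted p was below 0.05. The 5 filled points run from 0.67 for Tnfrsf18 to 2.68 for Icos, and the intervals of the other 5 genes include 0.

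Of the 7 TNF receptor genes, 4 rose in LO cells. On mouse chromosome 4 lie 5 of the 7, in the order Tnfrsf1b, Tnfrsf9, Tnfrsf25, Tnfrsf4 and Tnfrsf18. The last 2 are direct neighbours there with 0 protein-coding genes between them. The others lie apart, with 72 protein-coding genes between Tnfrsf1b and Tnfrsf9, 14 between Tnfrsf9 and Tnfrsf25 and 68 between Tnfrsf25 and Tnfrsf4. All 4 genes that rose are among these 5. The 250 bases before their RefSeq starts are shown because these genes moved together, with capitals where a script found TGANTCA, a core that AP-1 and Bach2 can bind, or GGG, any 5 bases and CC, a core of NF-kB sites, on either strand (GRCm38.p6, not the build of the deposited files).
Tnfrsf4, chr4:156013445-156013694, plus strand: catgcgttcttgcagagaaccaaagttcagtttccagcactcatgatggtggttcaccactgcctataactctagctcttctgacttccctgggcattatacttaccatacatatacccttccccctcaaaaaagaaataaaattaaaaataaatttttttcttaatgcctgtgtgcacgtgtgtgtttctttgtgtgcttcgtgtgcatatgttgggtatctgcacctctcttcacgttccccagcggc
Tnfrsf18, chr4:156026072-156026321, plus strand: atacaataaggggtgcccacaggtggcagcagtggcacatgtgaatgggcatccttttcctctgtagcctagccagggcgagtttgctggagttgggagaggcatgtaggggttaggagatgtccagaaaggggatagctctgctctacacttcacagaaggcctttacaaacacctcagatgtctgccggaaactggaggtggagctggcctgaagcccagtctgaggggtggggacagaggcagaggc
Tnfrsf9, chr4:150927749-150927998, plus strand: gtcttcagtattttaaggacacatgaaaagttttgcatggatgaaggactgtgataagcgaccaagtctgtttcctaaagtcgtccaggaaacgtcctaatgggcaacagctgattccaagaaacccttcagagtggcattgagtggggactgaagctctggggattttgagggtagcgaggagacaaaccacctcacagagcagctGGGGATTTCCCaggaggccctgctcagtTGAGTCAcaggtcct
Tnfrsf1b, chr4:145246871-145247120, minus strand: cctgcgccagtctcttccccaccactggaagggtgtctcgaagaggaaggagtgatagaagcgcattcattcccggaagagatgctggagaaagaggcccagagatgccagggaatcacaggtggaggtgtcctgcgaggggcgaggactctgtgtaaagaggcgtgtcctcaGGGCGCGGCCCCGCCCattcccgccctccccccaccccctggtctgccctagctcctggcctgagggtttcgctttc
Tnfrsf9 has 2 starts in the RefSeq table, and the one shown holds TGAGTCA from 15 to 9 bases before the start and overlapping NF-kB matches from 43 to 33 bases before it. The other Tnfrsf9 window holds neither. The Tnfrsf1b window holds 3 overlapping NF-kB matches between 77 and 62 bases before the start, and the windows of Tnfrsf4 and Tnfrsf18 hold no match. The NF-kB core was also found in the windows of the 3 TNF receptor genes that were not called, with 2 matches in Cd27, 3 and 2 in the windows of the 2 Tnfrsf25 starts and 3 in Tnfrsf13b, and none of these holds the AP-1 core. The letters TGANTCA were found in 6.75% and the NF-kB core in 45.8% of all 32851 promoter windows of this length, and a match is only a match of letters. Windows were in the table for 7 of the 10 genes, not for Icos, Cd28 or Cd226.

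Tnfrsf1b encodes TNFR2, the receptor through which TNF favours expansion of Treg cells, and had the largest change of the TNF receptors studied. It had 187, 266, 166 and 365 FPKM in LO F1, F2, M1 and M2, against 76.9, 89.0, 82.4 and 96.4 FPKM in HI F1, F2, M1 and M2. The LO libraries spread widely, and the lowest of them, M1, lay above the highest HI library, M2. The mean was 246 ± 90.3 FPKM in LO and 86.1 ± 8.41 FPKM in HI cells (SD, n = 4 each), 2.86-fold, with a log2 difference of 1.44 (SE 0.238; limma, adjusted p = 0.00497). Without the highest library, LO M2, the log2 difference was 1.23 (limma, adjusted p = 0.00643).

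Tnfrsf4 encodes OX40 and Tnfrsf18 encodes GITR, both high on Treg cells. Tnfrsf4 had 945, 1121, 916 and 1545 FPKM in LO F1, F2, M1 and M2, against 570.0, 686, 649 and 644 FPKM in HI F1, F2, M1 and M2. Each LO library was above each HI library, and the mean was 1132 ± 290.2 FPKM in LO and 637 ± 48.7 FPKM in HI cells (SD, n = 4 each), 1.78-fold. The log2 difference was 0.80 (SE 0.174; limma, adjusted p = 0.0196). The call was lost without LO F2 (adjusted p = 0.0586), without HI F1 (adjusted p = 0.0605) and with eBayes without a variance trend (adjusted p = 0.0649), while the log2 difference stayed between 0.64 and 0.89 when single libraries were left out.

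Tnfrsf18 was the most abundant of the 10 genes in both groups, above 99.2% of all tested genes by mean FPKM. It had 1817, 1965, 1709 and 2666 FPKM in LO F1, F2, M1 and M2, against 1105, 1331, 1264 and 1350.0 FPKM in HI F1, F2, M1 and M2. The groups did not overlap, and the mean was 2039 ± 431 FPKM in LO and 1262 ± 111 FPKM in HI cells (SD, n = 4 each), 1.61-fold (log2 difference 0.67, SE 0.158; limma, adjusted p = 0.0275). The call was lost in 5 of the 8 fits that left out 1 library (without LO F2, HI F1, HI F2, HI M1 or HI M2), with the largest adjusted p at 0.0822. An antisense gene model, Gm16008, overlaps Tnfrsf18 in the annotation and had 184 to 377 FPKM in LO and 129 to 179 FPKM in HI libraries. The strand setting of the counting is not given in the sources used here, so reads of these 2 models cannot be told apart.

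Tnfrsf9 encodes 4-1BB (CD137), which is induced by antigen receptor signals. It had 305, 384, 302 and 551 FPKM in LO F1, F2, M1 and M2, against 249.9, 224, 207 and 201 FPKM in HI F1, F2, M1 and M2. The lowest LO library and the highest HI library lay close together, without overlap. The mean was 385 ± 117 FPKM in LO and 221 ± 21.8 FPKM in HI cells (SD, n = 4 each), 1.75-fold, and the log2 difference of 0.76 (SE 0.199) passed narrowly (limma, adjusted p = 0.0445). This call was lost in 13 of 18 alternatives, among them 6 of the 8 that left out 1 library (without LO F2, LO M2, HI F1, HI F2, HI M1 or HI M2), where adjusted p ran up to 0.11, and the direction was the same in all 18.

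The 4 TNF receptor genes that rose had the same order of libraries within the LO group, LO M2 first, then F2, F1 and M1. LO M2 is also the deepest library, at 5.27 times the depth of HI F1, against 0.818, 0.818 and 1 in LO F1, F2 and M1. Without LO M2 the log2 difference was 0.64 for Tnfrsf4, 0.54 for Tnfrsf18 and 0.58 for Tnfrsf9, whose adjusted p (limma) was then 0.0514. The part of depth in these values was not tested further. The 4 HI libraries showed no such order. Icos, by contrast, had its highest LO value in M1, the library lowest for these 4 genes.

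**Figure D3:**
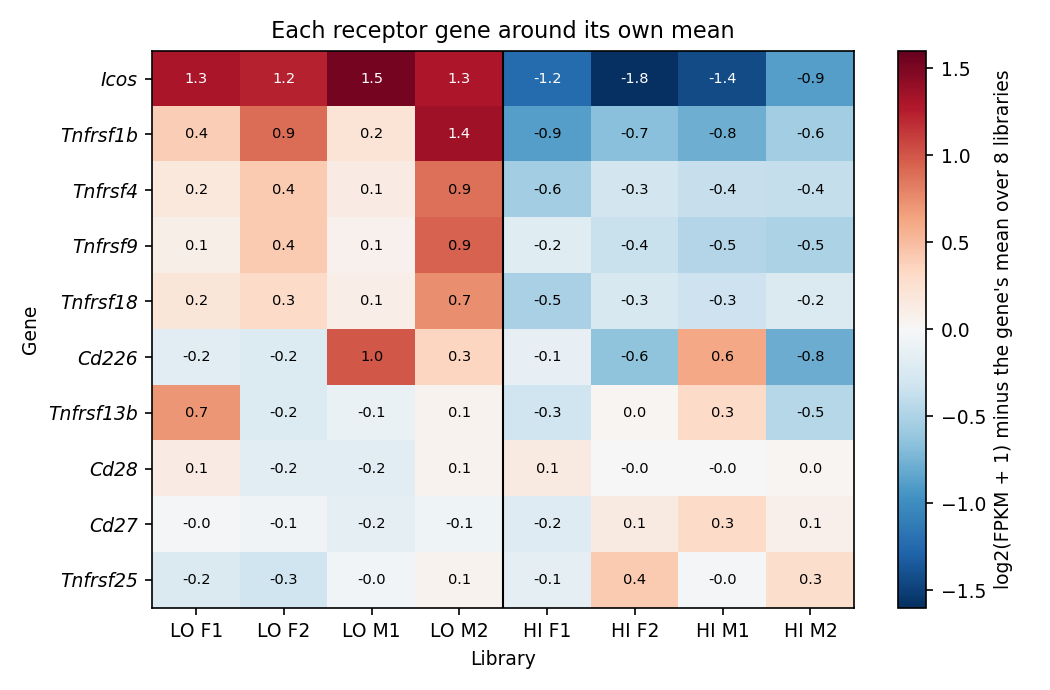
log2(FPKM + 1) of each receptor gene minus its own mean over the 8 libraries, LO libraries left and HI libraries right of the line, red above and blue below the gene's mean. Icos is at 1.2 to 1.5 in LO and -1.8 to -0.9 in HI libraries, Tnfrsf1b, Tnfrsf4, Tnfrsf9 and Tnfrsf18 are highest in LO M2, and Cd226 is high in M1 of both groups.

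CD27, the receptor for CD70, is carried by resting T cells and by most Treg cells. Cd27 had 322, 319, 298 and 314 FPKM in LO F1, F2, M1 and M2, against 286, 365, 407 and 348.9 FPKM in HI F1, F2, M1 and M2. The LO values lay within the range of the HI values and close together, with a coefficient of variation of 3.51% in LO and 14.3% in HI cells. The log2 difference was -0.16 (95% interval -0.46 to 0.15; limma, adjusted p = 0.581). Relative to Cd27 in the same library, Tnfrsf4 was at 2.93 to 4.92 in LO and 1.59 to 1.99 in HI cells, and Tnfrsf9 at 0.946 to 1.75 in LO and 0.509 to 0.874 in HI cells.

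Tnfrsf25 encodes death receptor 3, the receptor of TL1A, which can expand Treg cells in mice. It had 55.5, 52.5, 63.7 and 68.2 FPKM in LO F1, F2, M1 and M2, against 59.2, 88.0, 64.4 and 79.9 FPKM in HI F1, F2, M1 and M2. Each LO library was below the HI library of the same label, but the groups overlapped and the log2 difference of -0.27 (95% interval -0.67 to 0.14) did not pass (limma, adjusted p = 0.456). It is the one of the 5 receptor genes on chromosome 4 that was not called. Within a library the ratio of Tnfrsf1b to Tnfrsf25 FPKM was 2.61 to 5.36 in LO and 1.01 to 1.30 in HI cells.

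Tnfrsf13b encodes TACI, a receptor of BAFF and APRIL best known from B cells and plasma cells. It had 108, 56.2, 60.8 and 68.2 FPKM in LO F1, F2, M1 and M2, against 52.6, 67.4, 81.9 and 47.5 FPKM in HI F1, F2, M1 and M2. Only LO F1 stood above all HI libraries, and the log2 difference of 0.22 (95% interval -0.35 to 0.78) did not pass (limma, adjusted p = 0.694). LO F1 was also the highest library for Jchain, a plasma cell gene, at 160 FPKM, against 88.1, 60.1 and 47.6 FPKM in LO F2, M1 and M2 and 3.0 to 17.1 FPKM in HI libraries. Other plasma cell genes did not pass, among them Mzb1 at 4.96 ± 2.85 FPKM in LO and 9.66 ± 4.03 FPKM in HI cells and Xbp1 at 104 ± 21.9 FPKM in LO and 112 ± 14.5 FPKM in HI cells (SD, n = 4 each; limma, adjusted p = 0.315 and 0.762). Ms4a1, a marker of B cells, stood at 0 to 1.95 FPKM in LO libraries, against 5.50 to 24.3 FPKM in HI libraries (limma, adjusted p = 0.00351). Tnfrsf17, another receptor of the plasma cell lineage, was listed at 0 in 7 libraries and at 1.11 FPKM in LO M2. The part of B cells and plasma cells in the level of Tnfrsf13b was not tested.

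**Figure D4:**
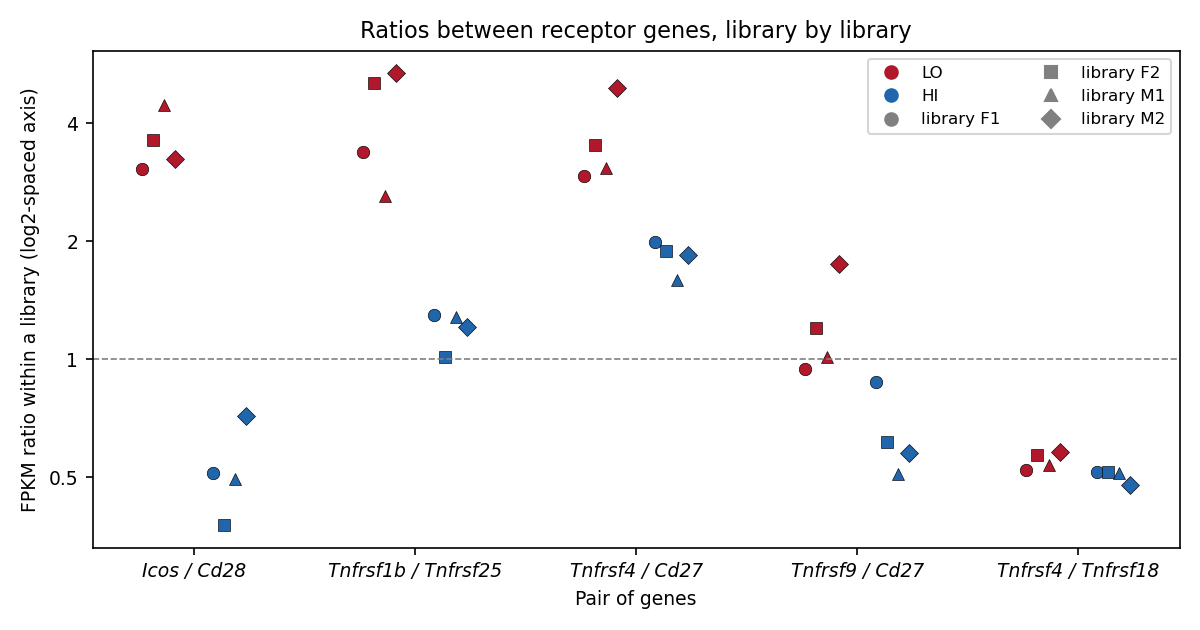
Ratio of the FPKM of 2 receptor genes within each library (log2-spaced axis), LO left of HI in each pair, marker shapes for the labels. LO libraries lie above HI libraries for Icos over Cd28, Tnfrsf1b over Tnfrsf25 and Tnfrsf4 or Tnfrsf9 over Cd27, and Tnfrsf4 over Tnfrsf18 stays between 0.477 and 0.580 in all 8.

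By level, Tnfrsf18 and Tnfrsf4 came first and second in both groups, without overlap with each other or the next gene, and together they made up 66.9% to 71.1% of the summed FPKM of the 10 genes in LO and 65.6% to 68.5% in HI libraries. That sum was 3921 to 5927 FPKM in LO and 2549 to 2968 FPKM in HI libraries. In LO cells Tnfrsf9, Cd27, Tnfrsf1b and Icos followed, each overlapping the next in its range over libraries, and Tnfrsf13b, Cd28, Tnfrsf25 and Cd226 formed a lower group that likewise overlapped from one gene to the next. In HI cells Cd27 and Tnfrsf9 came next, without overlap with their neighbours in the order. Icos was at place 6 of 10 in LO cells and place 9 of 10 in HI cells, where only Cd226 was lower by mean.

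The profiles of Tnfrsf4 and Tnfrsf18 were the most alike among the 45 pairs of receptor genes. After each gene's own mean was taken off, their log2(FPKM + 1) values differed by a root mean square of 0.084 over the 8 libraries, and the ratio of Tnfrsf4 to Tnfrsf18 FPKM was 0.520 to 0.580 in LO and 0.477 to 0.516 in HI cells. Among 7851 genes with a mean of at least 5 FPKM, those closest to Icos on this measure were Glrx (0.27), Maf (0.276) and Rora (0.286). M6pr, a mannose 6-phosphate receptor, was the closest to Tnfrsf4 (0.0651), and Nfatc1 the closest to Tnfrsf9 (0.122). The gene closest to Tnfrsf1b was another TNF receptor gene, Tnfrsf8 (0.19), which encodes CD30.

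Female and male libraries were set against each other for the same genes. None of the 10 receptor genes was called for female minus male, tested on the means of LO and HI of each label, and none had an unadjusted p below 0.05, whereas over all tested genes 2 (0.0178%) were called, 1 higher and 1 lower (0.00888% each), and 3.35% had an unadjusted p below 0.05 (limma). The interaction of sex and reporter level, tested over all 8 libraries, likewise gave 0 calls and 0 unadjusted p below 0.05 among the 10, against 2 calls (0.0178%), 1 in each direction (0.00888% each), and 3.83% over all tested genes (limma). For Icos the log2 difference LO minus HI was 2.79 in females and 2.57 in males, and for Tnfrsf1b 1.42 in females and 1.46 in males. The largest difference between the sexes was that of Cd226, with 0.19 in females and 0.75 in males (interaction standard error 0.684). With 2 libraries per sex and group, differences of this size were not detectable.

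Other receptors were examined as lists, beside calls over all tested genes of 4.65% higher and 3.64% lower. Of 17 tested genes in the list of CD28-related and immunoglobulin family receptors, 4 rose, 0 fell and 13 did not pass. The median log2 difference was 0.37. The list also holds Cd5, Cd6 and Cd247, which are not of the immunoglobulin superfamily. The 4 that rose were Tigit, Ctla4, Pdcd1 and Havcr2. Other receptors of the list that are also known as inhibitory did not pass, among them Cd96, at 132 ± 35.3 FPKM in LO and 207 ± 19.7 FPKM in HI cells (SD, n = 4 each; limma, adjusted p = 0.0682), Vsir (adjusted p = 0.0851), Lag3 (adjusted p = 0.502), Cd5 (adjusted p = 0.645) and Btla (adjusted p = 0.852). Ctla4, which competes with CD28 for CD80 and CD86, rose to 251 ± 32.4 FPKM in LO cells, against 101 ± 7.53 FPKM in HI cells (SD, n = 4 each; log2 difference 1.30; limma, adjusted p = 0.000642). Pdcd1, encoding PD-1, had 101, 177, 127 and 308 FPKM in LO F1, F2, M1 and M2, against 36.9 to 54.9 FPKM in HI libraries (limma, adjusted p = 0.00541). Havcr2, encoding TIM-3, was at 5.21 to 10.5 FPKM in LO libraries, against 0 in HI M1 and M2, 0.402 in HI F2 and 0.512 in HI F1. It passed the low-value filter only through its LO libraries, so its entry among the tested genes was not independent of its rise.

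Of the other 21 TNF receptor genes 10 passed the filter, of which 1 rose, 0 fell and 9 did not pass, with a median of -0.26. Over all tested genes 4.65% were called higher and 3.64% lower. Tnfrsf8 rose to 13.5 ± 3.69 FPKM in LO cells, against 5.07 ± 0.777 FPKM in HI cells (SD, n = 4 each; log2 difference 1.23; limma, adjusted p = 0.0248), a call that was lost in 6 of the 8 fits without 1 library (without LO F1, LO F2, LO M2, HI F1, HI F2 or HI M2), where adjusted p ran up to 0.0715. Fas, the death receptor CD95, was at 45.3 ± 10.5 FPKM in LO and 67.9 ± 16.6 FPKM in HI cells and did not pass (SD, n = 4 each; limma, adjusted p = 0.196). Relt, an orphan receptor of the family, was at 10.3 ± 1.72 FPKM in LO and 20.8 ± 8.66 FPKM in HI cells (limma, adjusted p = 0.159; 0.0434 without HI M2), and Tnfrsf13c, the BAFF receptor, at 4.98 ± 1.05 FPKM in LO and 8.88 ± 4.22 FPKM in HI cells (limma, adjusted p = 0.502).

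**Figure D5:**
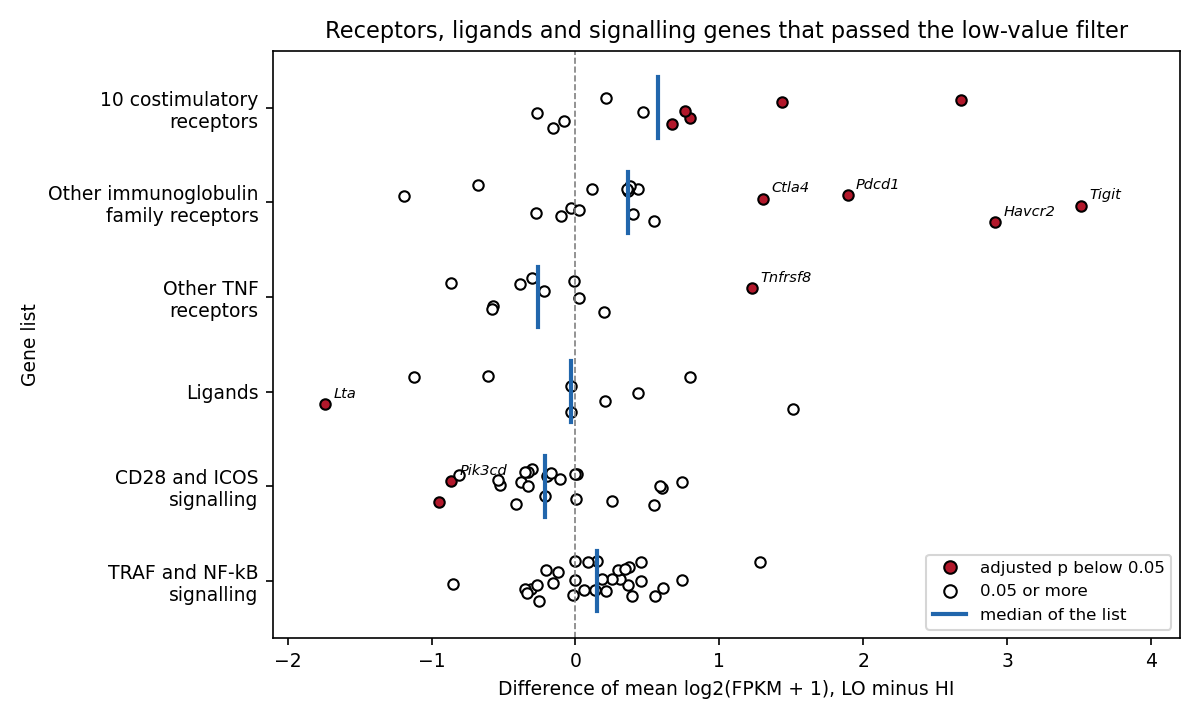
Difference of mean log2(FPKM + 1), LO minus HI, for each tested gene of 6 lists, 1 point per gene, filled where the adjusted p was below 0.05, with names at the filled points the text describes outside the 10 receptor genes and with a line at the list's median. Filled points are 5 of 10 for the costimulatory receptors, and 4 of 17 and 1 of 10 for the lists of other receptors, all above 0. They are 1 of 9 for the ligands and 2 of 23 for CD28 and ICOS signalling, all below 0. The TRAF and NF-kB list has none, and 8.29% of all tested genes were called. The list of other immunoglobulin family receptors also holds Cd5, Cd6 and Cd247, which are outside that superfamily.

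The ligands of these receptors are mostly made by antigen-presenting cells, and most of their genes were low here. Of 14 ligand genes 9 passed the filter, of which 0 rose and 1 fell, against 4.65% higher and 3.64% lower over all tested genes. Lta, encoding lymphotoxin alpha, a ligand of TNFR2, fell to 23.5, 19.8, 26.3 and 33.5 FPKM in LO F1, F2, M1 and M2, against 96.0, 96.0, 95.2 and 64.2 FPKM in HI F1, F2, M1 and M2 (log2 difference -1.74, SE 0.218; limma, adjusted p = 0.00123). Tnf, the other ligand of TNFR2, was at 12.6 ± 3.22 FPKM in LO and 6.83 ± 2.07 FPKM in HI cells (SD, n = 4 each; limma, adjusted p = 0.171). Tnfsf9, the ligand of 4-1BB, was at 1.42 to 11.6 FPKM in LO libraries and 0 to 2.83 FPKM in HI libraries (limma, adjusted p = 0.166), and Pvr, encoding CD155, at 8.85 ± 4.76 FPKM in LO and 21.8 ± 12.8 FPKM in HI cells (limma, adjusted p = 0.202). Tnfsf18, the ligand of GITR, was listed at 0 in all 8 libraries.

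Of 23 tested genes that act downstream of CD28 and ICOS 0 rose, 2 fell and 21 did not pass, with a median of -0.21. The shares over all tested genes were 4.65% higher and 3.64% lower. Pik3cd, the p110 delta catalytic subunit of phosphoinositide 3-kinase, fell to 52.9 ± 5.67 FPKM in LO cells, against 97.6 ± 14.9 FPKM in HI cells (SD, n = 4 each; limma, adjusted p = 0.0115). Themis, a T cell receptor adaptor (limma, adjusted p = 0.0806), and Malt1, the paracaspase of the CARMA1 complex (limma, adjusted p = 0.197), did not pass. Of 31 genes of TRAF and NF-kB signalling 0 rose and 0 fell (limma), with a median of 0.15. An unadjusted p below 0.05 (limma) was found for 4 of the 31, against 20.9% of all tested genes. The 4 with the smallest p were Tank, Relb, Nfkbia and Tnfaip3, at adjusted p = 0.136, 0.167, 0.187 and 0.224, and all 4 had higher means in LO cells. For Nfkbia, an NF-kB inhibitor and target gene, the LO libraries lay at 492 to 942 FPKM and the HI libraries at 353 to 485 FPKM. Traf3ip3, next by p, lay at 235.7 to 258.5 FPKM in LO and 258.7 to 379.5 FPKM in HI libraries. This lower level in LO cells did not pass (limma, adjusted p = 0.255). LO F1 held the highest value of Nfkbia and, at 145 FPKM, of Tnfaip3, which was at 22.9 to 29.8 FPKM in the other LO libraries and 10.96 to 29.4 FPKM in HI libraries.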

How the data were processed

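RNA of sorted splenic CD4 cells was made into SmartSeq2 libraries, per the labels' protocols, and each of the 8 libraries was grouped by its title. The series design text describes another, single-cell experiment and was not used. The authors deposited FPKM values from Cuffnorm, per the name of the table, 1 column per library. Per the submitters' processing notes, the tools were HISAT2, cutadapt and FastQC, and 2 names of 1 mouse build are listed, NCBIM37 and mm9. How values were scaled, with which annotation and strand setting, is not given in the sources used here. Symbols were taken by Ensembl ID from GENCODE names (31840 of 36811 IDs matched) and promoter windows from RefSeq (GRCm38.p6).

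FPKM were used as deposited. The filter kept genes that reached 1 FPKM in 4 or more libraries. Differences of log2(FPKM + 1) were tested by limma (3.58.1, R 4.3.3; eBayes with a variance trend, Benjamini-Hochberg adjustment over all 11260 genes, calls at 0.05). This scale understates changes of low genes, and folds are ratios of mean FPKM. The LO and HI libraries were compared in 1 fit of 8 with no covariate, sex was tested on label means, and the interaction over 8 libraries. The fits were tested on simulated data. Read numbers are unknown, and relative depth came from the most frequent ratio of low FPKM values to HI F1. The members and gene lists were chosen with earlier results of these data known. All 10 receptor genes are named, and from each pathway list up to 4 genes with the smallest p (1 of them is not reported here), and for receptor genes that were called those with the nearest profiles. Cd3e, Cd3d, Cd3g, Il2ra, Ikzf2, Ms4a1, Mzb1, Xbp1, Csf1r, Fcgr3, Cd96, Vsir, Lag3, Cd5, Cd6, Cd247, Btla, Jchain, Prdm1, Nkg7, Eomes, Gzma, Prf1, Klrb1c, Traf3ip3, Tnfrsf17, Tnfsf18 and Gm16008 were named after their values were seen.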

Additional observations from a re-analysis of the deposited data

How the results depend on the processing

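Icos and Tnfrsf1b passed under all 18 alternative fits, and Cd28, Cd226, Cd27, Tnfrsf25 and Tnfrsf13b under none, with the direction of all 10 receptor genes kept throughout. The calls of Tnfrsf9, Tnfrsf18 and Tnfrsf4 were lost in 13, 7 and 3 of the 18; the cause was not tested. Tnfrsf9 was at a log2 difference of 0.76 with a pseudocount of 0.1 (adjusted p = 0.0517), 0.76 without a filter (adjusted p = 0.0737), 0.81 with quantile normalization (adjusted p = 0.0682), 0.76 with eBayes without a trend (adjusted p = 0.106) and 0.76 with sex as covariate (adjusted p = 0.0686). Tnfrsf18 was at 0.67 without a filter (adjusted p = 0.056) and without a trend (adjusted p = 0.0955), and Tnfrsf4 at 0.80 without a trend (adjusted p = 0.0649). The number of the 10 genes called was 3 without a filter and 2 without a trend, and 2 to 5 when each library was left out in turn, against 5. Over single omissions the log2 difference was 0.58 to 0.86 for Tnfrsf9, 0.54 to 0.75 for Tnfrsf18 and 0.64 to 0.89 for Tnfrsf4, and 642 to 788 genes were called in all, against 934.

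Same-labelled LO and HI libraries deviated from their group means with correlations of 0.0149 to 0.113, and differently labelled ones with -0.0995 to 0.0583. For HI F1, M1 and M2 the LO library of the same label correlated most, and for HI F2 it was LO F1. These values do not settle whether the libraries are paired, and the main fit had no block because the labels state no pairs. With the label as a replicate block 771 genes and 4 of the 10 were called, the one lost being Tnfrsf9 (log2 difference 0.76, adjusted p = 0.0763), and Tnfaip3 passed (adjusted p = 0.0496). Without LO M2 and HI M1, chosen after the data were seen, 646 genes and 4 of the 10 were called, and Tnfrsf9 was at 0.55 (adjusted p = 0.0966). With the library number as covariate, also chosen afterwards, all 5 were called. The small log2 difference of Foxp3 (0.01) turned to -0.02 without LO F1, -0.13 without LO M1 and -0.02 without HI F2, in a range of -0.13 to 0.15 over single omissions. The exact two-sided permutation test of single genes gave each of the 5 called genes an unadjusted p = 0.0286, which any gene without overlap gets with 4 against 4 libraries, and adds nothing to the calls. Female minus male gave 1 gene in all with a pseudocount of 0.1, against 2.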

Other observations

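Within the HI group, the order of libraries by Icos was the reverse of their order by Bach2, a pattern noticed after the values were seen and not tested, since 4 libraries are too few. Icos was at 50.2, 39.0, 33.8 and 25.8 FPKM in HI M2, F1, M1 and F2, where Bach2 was at 8.62, 13.6, 19.4 and 20.7 FPKM. The order was not particular to Icos, as Tigit had it too, at 55.5, 50.1, 44.3 and 27.1 FPKM in these libraries. Tnfrsf1b showed no such order, with 96.4, 76.9, 82.4 and 89.0 FPKM in the same libraries. In the LO group, where Bach2 was below 1 FPKM throughout, the reverse order was not seen for Icos, and F2 was the lowest library for Icos and Bach2. Icos was at 231, 271, 230 and 221 FPKM in LO F1, M1, M2 and F2, where Bach2 was at 0.894, 0.753, 0.670 and 0.447 FPKM.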
